A study of Homo sapiens with 3 samples.

Results

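Genes of protein folding, translocation, glycosylation and quality control in the endoplasmic reticulum (ER), with the sensors of the unfolded protein response (UPR), were examined in NB4 cells in which ARID1B had been silenced. The members were 60 genes listed by symbol, and each matched 1 row of a table of 57773 Ensembl gene IDs. NB4 cells are an established line from a human acute promyelocytic leukaemia, with the PML-RARA fusion oncogene. ARID1B belongs to the BAF complex, which remodels chromatin and which it helps to bind DNA. The data comprised 3 libraries of polyadenylated RNA from NB4 cells kept in RPMI medium with fetal bovine serum. In 1 library the cells carried a control short hairpin RNA (shRNA) without a target, and in the other 2 ARID1B was targeted, in 1 library with hairpin 2 and in 1 with hairpin 3. No drug or ER stressor is named for any library, and neither the time after delivery of the hairpins nor the use of clones or pools is given in the labels. Separate cultures are not mentioned either. A p-value here rests on the spread between the 2 hairpin libraries, largely pooled over genes. That spread may be technical, may differ by hairpin, and covers these samples alone.

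The ER folds secreted and membrane proteins. They enter through the SEC61 translocon, lose their signal peptide to signal peptidase, receive N-glycans from the oligosaccharyl transferase, and are folded by Hsp70 and Hsp90 chaperones, by lectin chaperones and by disulfide isomerases. Misfolded proteins are sent back to the cytosol by ER-associated degradation. When folding falls behind, the sensors IRE1 (gene ERN1), PERK (gene EIF2AK3) and ATF6 start the UPR: IRE1 splices the mRNA of XBP1, PERK slows translation, and ATF6 is cleaved to a transcription factor, and ATF6 and XBP1 then raise the genes of chaperones and of degradation. Promyelocytes fill their granules through this pathway.

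Total counts lay between 59997475 and 62954803 per library, and 28171 to 29270 IDs had at least 1 count. ARID1B (ENSG00000049618) stood at 84.8 CPM (counts scaled to a common library size) in the control library and at 36.7 and 35.8 CPM under hairpins 2 and 3, a log2 fold change of -1.23 ± 0.125 (SE; edgeR quasi-likelihood test, adjusted p = 1.4e-05). Of 8 promyelocyte markers 1 rose (PRTN3) and 2 fell (CTSG and MS4A3), with sums of 11518, 14562 and 12533 CPM in the control, hairpin 2 and hairpin 3 libraries. MPO had 10994 CPM in the control library, while ELANE, the neutrophil elastase gene, had 10, 4 and 1 counts in the 3 libraries. Markers of eosinophils, basophils and mast cells moved with the knockdown: 8 of 10 rose, and their summed level was 92.9 CPM in the control library and 2148 and 1131 CPM under hairpins 2 and 3, and each of the 10 had counts in each library. The part of this in the results below was not tested. The plasma cell list, of interest because those cells hold much ER, summed to 8.16, 6.14 and 5.5 CPM, with SDC1 higher, MZB1 lower, and JCHAIN and TNFRSF17 at 0 counts throughout, a count that allows up to 0.05 CPM in the shallowest library. Of the lymphocyte markers 0 of 3 tested changed (sums of 102.9, 131.7 and 116.5 CPM, MS4A1 at 0 counts). Of the markers for epithelium, fibroblasts and packaging cells 1 of 3 tested fell, COL6A1 (sums of 25.6, 19.2 and 24.1 CPM, KRT19 at 0 counts). In bulk RNA, fewer cells of a type and less RNA per cell cannot be told apart.

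With ARID1B silenced, 6 of 11 members of the Hsp70 and Hsp90 system, 4 of 10 disulfide isomerases and oxidases and 3 of 7 oligosaccharyl transferase subunits rose, while the transcripts of the 3 UPR sensors did not pass the test. The members that rose did so by 1.41 to 1.87 times. Of the 60 members, 18 rose and 1 fell (edgeR quasi-likelihood test with Benjamini-Hochberg adjusted p under 0.05 over 20382 genes tested). Over all genes tested, 5.49% were called higher and 3.21% lower. Among the 9963 genes with a mean of at least 10 CPM, where 57 of the 60 members lie, 7.27% were called higher and 3.55% lower, a line drawn after the data were seen. All 60 members passed the filter on low counts. The median log2 fold change was 0.32 over the members and -0.01 over all genes tested, and 51 members had a positive value. Under hairpin 2, 52 members lay above the control, against 47.3% of all genes tested. Under hairpin 3, 50 members lay above it, against 48.7% of all genes tested. Both comparisons use the same control library. The summed level of the members was 10434 CPM in the control library, 14951 CPM under hairpin 2 and 14421 CPM under hairpin 3. A fitted level of at least 1.5 times the control was reached by 13 members, all of them among the 18, and by 10.3% of all genes tested. The number of members called higher was 9 with only genes at a mean of at least 1 CPM tested, 24 with the size factors of DESeq2 and 0 without a filter on low counts, where 28 of the 60 were higher at an unadjusted p under 0.05 in edgeR and no gene of the whole table passed. With DESeq2 itself, 15 rose and 0 fell (1 was lower at an unadjusted p under 0.05).

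**Figure D1:**
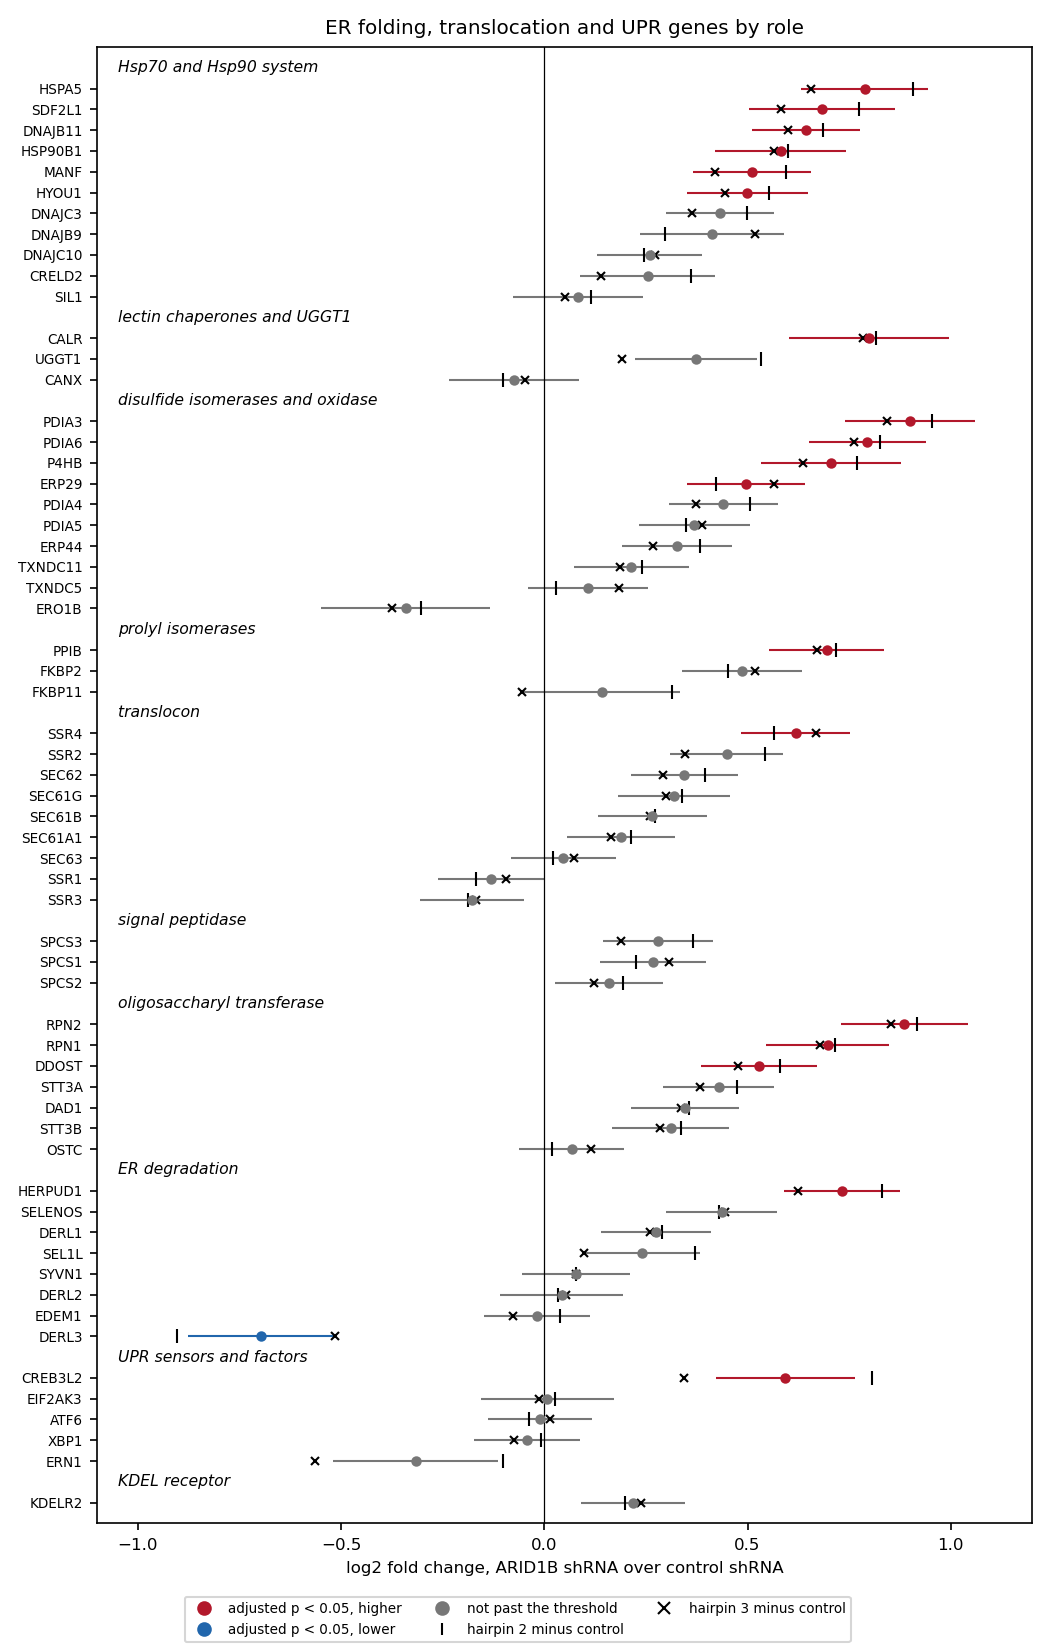
Log2 fold change of ARID1B shRNA over control shRNA for the 60 members, grouped by role, with bars of 1 standard error. Filled circles are the fitted values, coloured where the edgeR adjusted p is under 0.05, and the tick and the cross give the hairpin 2 and hairpin 3 library minus the control library in log2 CPM. The 18 members in red lie between 0.50 and 0.90, DERL3 in blue lies at -0.70, and ATF6, EIF2AK3 and XBP1 lie near 0.

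**Figure D2:**
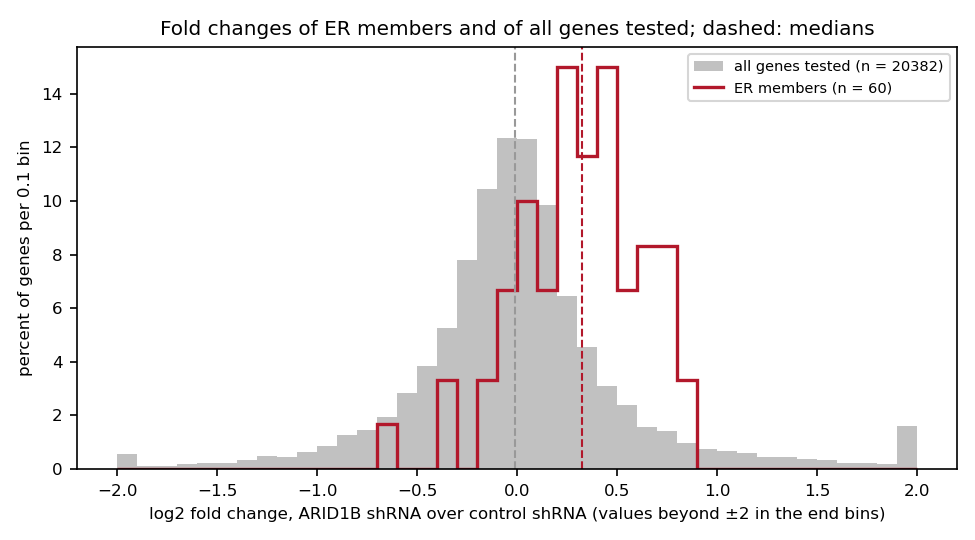
Share of genes, in percent, in each 0.1-wide bin of log2 fold change, for all 20382 genes tested (grey) and the 60 ER members (red line). Dashed lines mark the medians, -0.01 for all genes tested and 0.32 for the members.

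Promoters of UPR target genes carry short elements that ATF6 and XBP1 bind, and these were looked for in the RefSeq promoters (GRCh38.p14, 250 bases before to 50 after each annotated start) of the 53 members that have one in the table, on both strands. The ER stress element (ERSE), which is CCAAT and CCACG with 9 bases of any kind between them, was found in 8 of the 53 (15.1%) and in 0.0916% of the 27305 genes with a promoter there. The second ER stress element (ERSE-II), which is ATTGG and CCACG with 1 base between them, was found in 3 of the 53 (5.66%) and in 0.0696% of all. The ERSE holders were HSPA5, HSP90B1, CALR, PDIA6, CRELD2, XBP1, CANX and ERO1B, and the ERSE-II holders were HERPUD1, HYOU1 and SDF2L1. The XBP1 site known as the UPR element was searched as TGACGTGG, found in 7 of the 53 (13.2%) and 0.927% of all genes, and as TGACGTGA, found in 0 of the 53 and 0.52% of all. In HYOU1 the TGACGTGG match overlaps an ERSE-II. These elements are known from UPR targets such as several of the members, so their frequency here is a description of the list.

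The upstream bases of HSPA5 are shown whole, as the reference UPR target, followed by stretches of the promoters of 3 other ERSE holders that rose. All run 5′ to 3′ on the gene's strand and lie before the start, and capitals mark the ERSE, which reads CGTGG first where it lies on the opposite strand. HSP90B1 holds 2 such elements. Only exact matches are marked, and near matches, in HSPA5 or elsewhere, were not searched.
HSPA5 (chr9:125241344-125241593, minus strand): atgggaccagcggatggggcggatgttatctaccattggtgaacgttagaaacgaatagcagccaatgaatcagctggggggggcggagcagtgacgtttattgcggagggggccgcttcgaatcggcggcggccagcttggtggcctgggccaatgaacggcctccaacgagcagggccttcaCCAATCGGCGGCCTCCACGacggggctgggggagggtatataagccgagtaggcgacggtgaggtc
HSP90B1 (chr12:103930191-103930364, plus strand): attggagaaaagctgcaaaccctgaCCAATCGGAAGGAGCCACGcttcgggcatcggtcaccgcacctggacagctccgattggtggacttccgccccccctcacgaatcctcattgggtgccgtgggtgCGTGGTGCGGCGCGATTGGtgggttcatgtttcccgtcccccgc
CALR (chr19:12938359-12938427, plus strand): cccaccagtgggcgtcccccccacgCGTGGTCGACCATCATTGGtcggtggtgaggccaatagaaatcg
PDIA6 (chr2:10812828-10812896, minus strand): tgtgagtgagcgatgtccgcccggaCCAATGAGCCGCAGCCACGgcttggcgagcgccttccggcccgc

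The 4 other ERSE holders did not pass the test, and the same element in their promoters is shown for comparison.
CRELD2 (chr22:49918529-49918597, plus strand): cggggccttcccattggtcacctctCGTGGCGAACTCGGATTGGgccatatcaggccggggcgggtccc
XBP1 (chr22:28800578-28800646, minus strand): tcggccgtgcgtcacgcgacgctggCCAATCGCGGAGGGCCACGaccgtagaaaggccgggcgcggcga
CANX (chr5:179698753-179698821, plus strand): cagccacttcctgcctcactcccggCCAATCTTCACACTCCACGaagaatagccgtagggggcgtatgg
ERO1B (chr1:236282158-236282208, minus strand): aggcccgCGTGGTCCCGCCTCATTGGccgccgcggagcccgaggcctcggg

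All 3 holders of ERSE-II rose, and capitals mark that element, which reads CGTGG first on the opposite strand and is present in 2 copies in HYOU1.
HERPUD1 (chr16:56932000-56932060, plus strand): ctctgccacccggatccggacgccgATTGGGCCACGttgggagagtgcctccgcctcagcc
HYOU1 (chr11:119057249-119057415, minus strand): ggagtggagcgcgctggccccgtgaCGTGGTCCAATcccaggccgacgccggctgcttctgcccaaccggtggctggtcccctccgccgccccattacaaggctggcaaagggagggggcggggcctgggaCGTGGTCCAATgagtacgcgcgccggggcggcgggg
SDF2L1 (chr22:21642089-21642149, plus strand): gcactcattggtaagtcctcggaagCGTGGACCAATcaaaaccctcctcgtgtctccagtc

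Of the 11 members with either element 7 rose, with a median log2 fold change of 0.58 and a range of -0.34 to 0.80. Of the 42 other members with a promoter listed there, which may hold near matches and of which some hold TGACGTGG, 9 rose. Their median was 0.32 and their range -0.32 to 0.89. RPN2, RPN1 and PDIA3, among the largest rises, are not among the holders, and RPN1 and PDIA3 have no promoter in the table. Over all genes tested, 4 of 16 ERSE holders and 4 of 13 ERSE-II holders rose, and 7 of these 8 were members. Of the 7 members with TGACGTGG 2 rose, HYOU1 and SSR4. Over all genes tested, 7 of 131 holders of TGACGTGG and 7 of 80 holders of TGACGTGA rose, against 5.49% of all genes. Members that rose and members that did not were found with and without an element, and the difference between these sets was not tested.

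**Figure D3:**
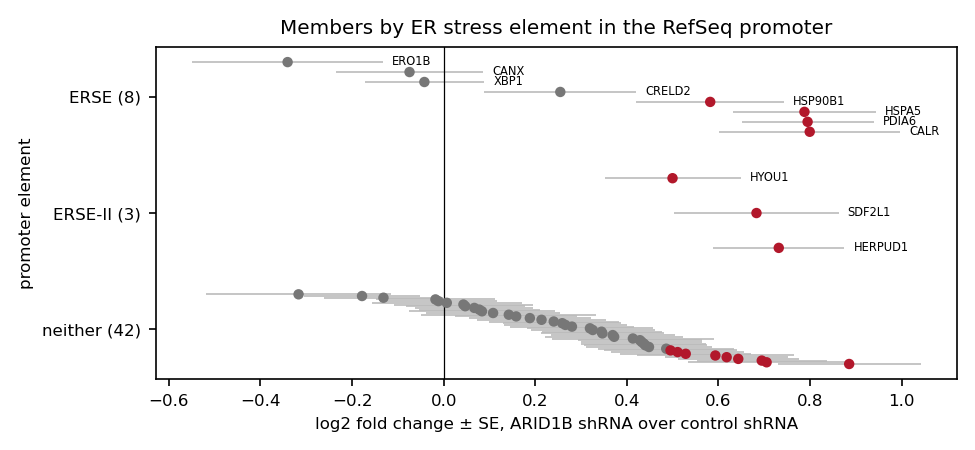
Log2 fold change with 1 standard error for the 53 members with a RefSeq promoter, split by the ER stress element found there (exact matches only). Red points rose (edgeR adjusted p under 0.05) and grey points did not pass. The 8 ERSE holders spread from -0.34 to 0.80, and the 3 ERSE-II holders lie at 0.50, 0.68 and 0.73.

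Of the 11 members of the Hsp70 and Hsp90 system 6 rose and 0 fell, and all 11 lay above the control under each hairpin. HSPA5 (ENSG00000044574), the ER Hsp70 known as BiP, which also holds the UPR sensors inactive, had 16825 counts with the control hairpin and 30583 and 26630 under hairpins 2 and 3, or 270.9, 508.5 and 427.2 CPM. This was a 1.73-fold rise (log2 0.79 ± 0.157, edgeR adjusted p = 0.00404). Both knockdown libraries lay well above the control, and hairpin 2 above hairpin 3. HSP90B1, the ER Hsp90 known as GRP94, went from 607 CPM to 919.6 and 897.8 (log2 0.58 ± 0.161, edgeR adjusted p = 0.0335). HYOU1, a large Hsp70 relative that exchanges nucleotide on BiP, went from 358.2 CPM to 525.4 and 487.6 (0.50 ± 0.148, edgeR adjusted p = 0.047). For both genes the 2 hairpins differed far less from each other than from the control. Among the J-domain cochaperones that hand substrates to BiP, DNAJB11 rose from 53.5 CPM to 86 and 81.1 (0.64 ± 0.132, edgeR adjusted p = 0.00511). SDF2L1, a partner of DNAJB11, rose from 7.75 CPM to 13.3 and 11.6 (0.68 ± 0.179, edgeR adjusted p = 0.025), and MANF, a secreted ER stress protein that binds BiP, from 22.4 to 33.9 and 30 (0.51 ± 0.146, edgeR adjusted p = 0.039). These 3 partners of BiP thus had rises of the size seen for the chaperones themselves. DNAJB9, a J-domain protein that represses IRE1, had 9.23, 11.3 and 13.2 CPM (0.41 ± 0.177) and did not pass in edgeR (adjusted p = 0.187). DNAJC3 (0.43 ± 0.133, edgeR adjusted p = 0.0553), DNAJC10 (0.26), CRELD2 (0.25) and the nucleotide exchange factor SIL1 (0.08) also did not pass. Beside the fit without a filter, which called none of the members, HSP90B1, HYOU1 and MANF lost their calls with upper quartile factors and, with SDF2L1, at a mean of at least 1 CPM. SDF2L1 and MANF lost theirs with DESeq2, and HYOU1 with robust empirical Bayes.

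The lectin chaperones hold glycoproteins until they fold. CALR (calreticulin), the soluble one, had 1431 CPM in the control and 2518 and 2462 with ARID1B silenced by hairpins 2 and 3, a 1.74-fold rise (log2 0.80 ± 0.197, edgeR adjusted p = 0.0175). Its membrane-bound homologue CANX (calnexin) had 933.8, 869.9 and 903.8 CPM, with a log2 fold change of -0.07 ± 0.16 and no call in edgeR (adjusted p = 0.854). The 2 knockdown libraries thus lay far above the control for CALR and slightly below it for CANX, a difference between the genes that was not tested. Per kilobase of exon, CALR was the most abundant member in the control library, at 527.1 CPM per kilobase, followed by CANX at 149.8 and P4HB at 139.3. UGGT1, which returns misfolded glycoproteins to the lectins, had 110.7, 160.2 and 126.4 CPM (0.37 ± 0.15, edgeR adjusted p = 0.158). CALR lost its call at a mean of at least 1 CPM.

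Of the 10 disulfide isomerases and oxidases 4 rose and 0 fell. PDIA3, the isomerase that works with the lectin chaperones, had the largest rise of all members, from 437.2 CPM in the control to 847.3 and 784.4 under hairpins 2 and 3 (1.87-fold, log2 0.90 ± 0.161, edgeR adjusted p = 0.00178). PDIA6 rose from 234.4 CPM to 415.9 and 397.5 (0.79 ± 0.144, edgeR adjusted p = 0.00199). P4HB, the founding protein disulfide isomerase and a subunit of collagen prolyl hydroxylase, rose from 738.9 CPM to 1260 and 1150 (0.71 ± 0.172, edgeR adjusted p = 0.0164). In these abundant isomerases the control library was the lowest by a wide margin. ERP29, a chaperone of this family without a redox-active cysteine pair, rose from 271.8 CPM to 364.1 and 402.2 (0.50 ± 0.145, edgeR adjusted p = 0.0439). It was 1 of only 2 members that rose and stood higher under hairpin 3 than under hairpin 2, the other being SSR4. PDIA4 (0.44 ± 0.135, edgeR adjusted p = 0.0534), PDIA5 (0.37), ERP44 (0.33), TXNDC11 (0.21) and TXNDC5 (0.11) were above the control under both hairpins without passing. ERO1B, an oxidase that recharges the isomerases, had the second lowest level per kilobase of the members, 1.06 CPM per kilobase in the control, and 5.67, 4.59 and 4.36 CPM in the 3 libraries (-0.34 ± 0.208, edgeR adjusted p = 0.392). PDIA6 shares 25.2% of its exon length with ATP6V1C2 on the other strand, whose counts rose alongside (0.78 ± 0.133), and TXNDC5 shares 60.6% with a read-through gene, BLOC1S5-TXNDC5, that has nearly the same counts (25889 and 25698 in the control). Whether reads were split between such pairs or counted for both is uncertain, as the use of strand in counting is not given. P4HB lost its call at a mean of at least 1 CPM, and ERP29 there, with upper quartile factors and with robust empirical Bayes.

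Of the 3 prolyl isomerases, which turn proline bonds during folding, PPIB (cyclophilin B) rose from 230.6 CPM to 379.4 and 367.1 (0.69 ± 0.142, edgeR adjusted p = 0.00493). It shares 27.2% of its exon length with SNX22 on the other strand, whose counts also rose (0.68 ± 0.137). Whether reads were split or counted for both is uncertain for this pair too. FKBP2 had 16.8, 23.1 and 24.1 CPM (0.49 ± 0.148, edgeR adjusted p = 0.0533), the largest value that did not pass among the members. FKBP11 had 9.23 CPM in the control, 11.5 under hairpin 2 and 8.89 under hairpin 3 (0.14 ± 0.191), with the control between the hairpins.

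**Figure D4:**
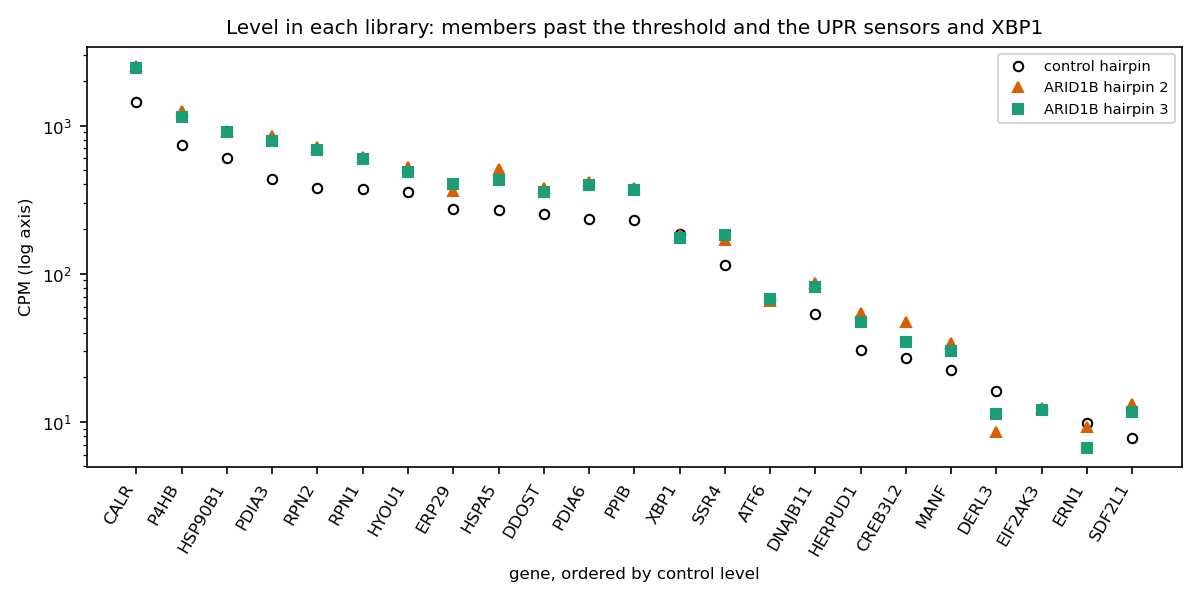
Level in CPM (log axis) of the 19 members that changed and of XBP1, ATF6, EIF2AK3 and ERN1, 1 point for each library. The open circle (control) lies below both knockdown points in the 18 genes that rose, above both in DERL3 and ERN1, and close to them in XBP1, ATF6 and EIF2AK3.

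In the glycosylation machinery 3 of 7 oligosaccharyl transferase subunits rose and 0 fell. RPN2 (ribophorin II) had 381.2 CPM in the control library and 720 and 688.6 under hairpins 2 and 3, a 1.85-fold rise with the smallest adjusted p of all members (log2 0.89 ± 0.156, edgeR adjusted p = 0.00161). RPN1 (ribophorin I) rose from 372.2 CPM to 611 and 595.6 (0.70 ± 0.151, edgeR adjusted p = 0.00742). DDOST, a further non-catalytic subunit, rose from 254.6 CPM to 380.4 and 354.3 (0.53 ± 0.143, edgeR adjusted p = 0.0289), a call lost at a mean of at least 1 CPM. It shares 15.7% of its exon length with PINK1-AS on the same strand, which had 0.43 ± 0.134 (edgeR adjusted p = 0.0561). Of the 2 catalytic subunits, STT3A, which works beside the translocon, had 183.4, 254.6 and 239 CPM (0.43 ± 0.136, edgeR adjusted p = 0.0644), and STT3B, which works after translocation, had 360.1, 454.8 and 438.9 CPM (0.31 ± 0.144, edgeR adjusted p = 0.229). DAD1 (0.35) and OSTC (0.07) did not pass either.

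Of the 9 translocon members 1 rose, SSR4, a subunit of the translocon-associated protein (TRAP) complex, from 114.9 CPM to 170 and 182.8 (0.62 ± 0.135, edgeR adjusted p = 0.00761). The other TRAP subunits had 0.45 ± 0.139 (SSR2, edgeR adjusted p = 0.0564), -0.13 ± 0.13 (SSR1) and -0.18 ± 0.127 (SSR3), so that the 4 subunits of this complex lay on both sides of 0. The channel subunits SEC61A1, SEC61B and SEC61G had log2 fold changes of 0.19, 0.27 and 0.32, and the channel's partners SEC62 and SEC63 of 0.34 and 0.05. None of these passed in edgeR. The signal peptidase subunits SPCS1, SPCS2 and SPCS3 had 0.27, 0.16 and 0.28 and did not pass. SPCS1 shares 50.7% of its exon length with NEK4 on the other strand.

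In ER-associated degradation 1 of 8 members rose and 1 fell. HERPUD1, a membrane protein of the retrotranslocation complex and a UPR target, rose from 30.6 CPM to 54.5 and 47.2 (1.66-fold, log2 0.73 ± 0.143, edgeR adjusted p = 0.00353). DERL3, a derlin of secretory cells, fell from 16.1 CPM to 8.56 and 11.2 (-0.70 ± 0.179, edgeR adjusted p = 0.0226), the control being above both hairpins. DERL3 shares 77% of its exon length with SMARCB1 on the other strand, which has more counts and had -0.17 ± 0.126, and its call was lost with DESeq2 and at a mean of at least 1 CPM. Its relatives DERL1 (0.28) and DERL2 (0.04), the ubiquitin ligase SYVN1 (HRD1, 0.08) and its partner SEL1L (0.24), the mannosidase-like EDEM1 (-0.02) and the retrotranslocation protein SELENOS (0.44 ± 0.137, edgeR adjusted p = 0.0593) did not pass. SYVN1 stood at 210.5, 222.2 and 222.1 CPM, nearly the same under both hairpins. HERPUD1 thus differed in its call from the ligase complex it joins, though the difference between the genes was not tested.

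Transcripts of the 3 UPR sensors did not pass the test. ATF6 had 66.8, 65.1 and 67.4 CPM in the control, hairpin 2 and hairpin 3 libraries (log2 -0.01 ± 0.128). EIF2AK3, which encodes PERK, had 12.1, 12.4 and 12 CPM (0.0069 ± 0.163). For both genes the control lay between the hairpins, and the sign of these small values changed with the scaling of the libraries. ERN1, which encodes IRE1, had 9.89, 9.21 and 6.67 CPM (-0.32 ± 0.202, edgeR adjusted p = 0.418), the lowest level per kilobase of the members (0.91 CPM per kilobase in the control). XBP1, the factor activated by IRE1, had 183.9, 182.7 and 174.5 CPM (-0.04 ± 0.131, edgeR adjusted p = 0.903). Counts per gene do not tell spliced from unspliced XBP1 mRNA, nor cleaved ATF6 or phosphorylated PERK from the inactive forms, so the activity of the 3 sensors was not measured. The member of this group that rose was CREB3L2, a membrane-bound transcription factor related to ATF6, from 27.2 CPM to 47.5 and 34.5 (0.59 ± 0.172, edgeR adjusted p = 0.0416). It was among the 3 members furthest apart between the hairpins, with ERN1 and DERL3, and its call was lost with DESeq2, with robust empirical Bayes and at a mean of at least 1 CPM. KDELR2, a receptor that returns escaped chaperones from the Golgi, had 83.9, 96.3 and 98.9 CPM (0.22 ± 0.128) and did not pass in edgeR (adjusted p = 0.372).

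Of the 18 members that rose, 16 stood higher under hairpin 2 than under hairpin 3. Over all 60 members, 43 were further from the control under hairpin 2. These counts were not made over all genes tested, so they do not set the members apart from other genes. The median difference from the control was 0.36 under hairpin 2 and 0.29 under hairpin 3 in log2 CPM, without a test because each hairpin has 1 library. The largest gaps between the hairpins were in ERN1 (-0.10 and -0.57 from the control under hairpins 2 and 3), CREB3L2 (0.81 and 0.34) and DERL3 (-0.90 and -0.51). The control lay between the hairpins for FKBP11, EDEM1, ATF6 and EIF2AK3.

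Other genes of the pathway were read from lists that hold none of the members. Of 27 other ER folding enzymes tested, 5 rose and 1 fell, with a median of 0.32. GANAB, the glucosidase II subunit that trims glycans for the lectin chaperones, went from 647.3 CPM to 1053 and 1009 (0.67 ± 0.165). PRDX4, an ER peroxiredoxin that feeds oxidising power to the isomerases, had 0.65 ± 0.134, and CNPY2 0.61 ± 0.131. TOR1A (0.58) and CLGN (0.57) complete the 5 and were added to the named genes after their values were seen. MZB1, an ER cochaperone of antibody-secreting cells, fell from 6.04 CPM to 1.91 and 2.05 (-1.61 ± 0.23, edgeR adjusted p = 2.56e-04). Of 28 other genes of translocation, signal peptide removal and glycosylation 1 rose, the signal peptidase catalytic subunit SEC11A (0.69 ± 0.134), and 0 fell, with a median of 0.18. Of 28 other degradation genes 2 rose, the lectin OS9 (0.75 ± 0.143) and EDEM2 (0.48 ± 0.14), and 0 fell, with a median of 0.16. In ER to Golgi traffic 4 of 30 rose and 0 fell, with a median of 0.14: the cargo lectin LMAN2 (0.72 ± 0.142), TMED9 (0.64 ± 0.132), SAR1B (0.60 ± 0.14) and TMED3 (0.50), the last named after its value was seen.

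The list for the PERK and ATF4 branch also held EIF2A and the kinase genes EIF2AK1, EIF2AK2 and EIF2AK4, so it is wider than PERK signalling. Among its 15 genes tested 1 changed, with a median of 0.09. This was a rise of CEBPB (0.71 ± 0.174), a transcription factor that also acts in myeloid differentiation. Transcripts of ATF4, the central factor of the branch, had 832.3, 855 and 917.7 CPM (0.09 ± 0.161). Those of DDIT3, the stress factor CHOP, had 22.8, 26.5 and 27.9 CPM (0.25 ± 0.142). Neither passed in edgeR (adjusted p = 0.819 and 0.345). CEBPB was lost with robust empirical Bayes and at a mean of at least 1 CPM. Of 15 other UPR factors tested, the cell death suppressor TMBIM6 rose (0.61 ± 0.151) and 0 fell, with a median of 0.07, and TMBIM6 was lost at a mean of at least 1 CPM. Over these lists the share called higher can be read against the 5.49% of all genes tested. Most of the listed genes have a mean of at least 10 CPM, where 7.27% were called higher. The translocation, degradation, PERK and ATF4, and other UPR lists lay below that second share. The folding and traffic lists lay above it.

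**Figure D5:**
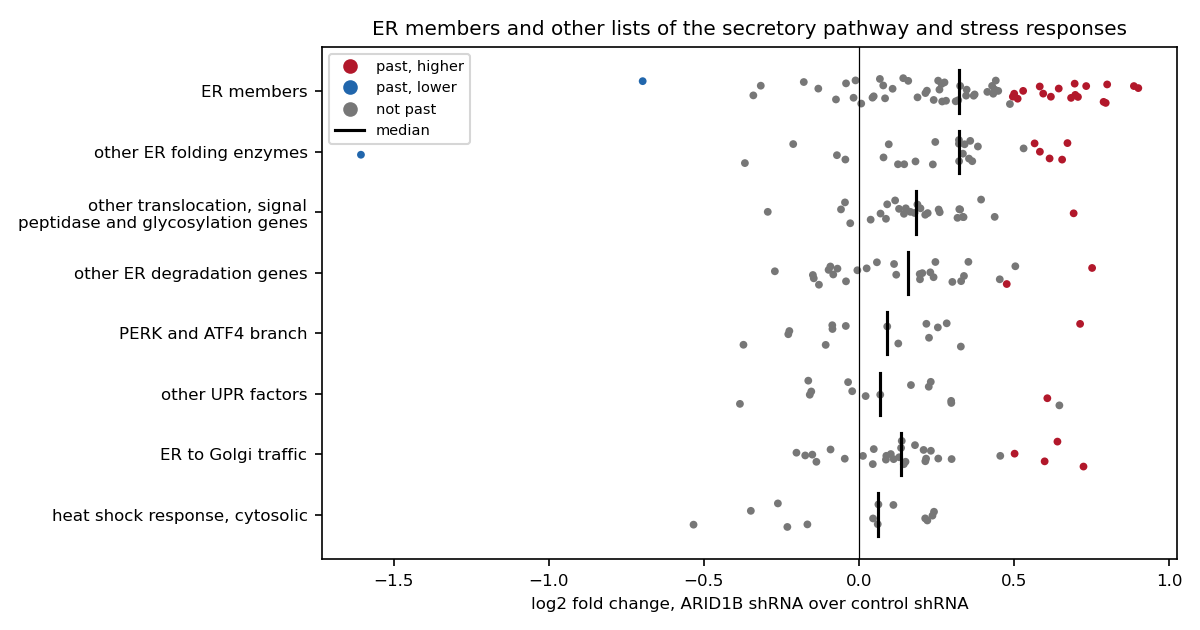
Log2 fold change of ARID1B shRNA over control shRNA for the 60 ER members and for the tested genes of 7 other lists, 1 point per gene (vertical scatter within a list carries no value), with the median as a black bar. Red points rose and blue points fell (edgeR adjusted p under 0.05). Medians are 0.32 for the members and for the other folding enzymes, and between 0.06 and 0.18 for the rest.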

How the data were processed

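Polyadenylated RNA of NB4 cells was sequenced in 3 libraries, 1 with a control shRNA and 2 with ARID1B shRNAs. The authors deposited whole-number read counts per Ensembl gene ID, not normalized; STAR, featureCounts, Cufflinks and hg19 are named without versions or roles, per the submitters' processing notes. For annotation release and strand, the setting is not given in the sources used here, so counts of overlapping genes are uncertain. Symbols came from a gene name table and GENCODE 29, which also gave exon lengths and overlaps. It describes another build than hg19, so no coordinates were taken from it.

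edgeR 4.0.16 (R 4.3.3) was run on the counts: filterByExpr at a minimum count of 10 (20382 genes), TMM scaling, estimateDisp, glmQLFit with legacy = FALSE and glmQLFTest, two-sided, Benjamini-Hochberg adjusted p under 0.05. The fit had 1 residual degree of freedom, from the difference between the hairpins, and the lone control was assumed to vary like them. Standard errors are the log2 fold change over the root of the F statistic. For single libraries, log2 CPM used 2 as the prior count. Totals of 59997475 to 62954803 leave little counting error for most members, and floors (3 counts) cover counting error only. The procedure was tested on simulated data, with the hairpins as true replicates and changes larger than those of any member. It therefore does not tell how often changes of the members' size are found.

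Alternatives were DESeq2 1.42.0, other scalings, filters and empirical Bayes settings, and each hairpin alone. Members and lists were chosen with earlier results of these data known. Named were ARID1B, the 15 members with the smallest adjusted p among those that changed, 8 chosen UPR genes (HSPA5, HSP90B1, XBP1, ATF6, ERN1, EIF2AK3, DNAJB9 and HERPUD1), the 3 largest values that did not pass, the 3 highest and 3 lowest levels per kilobase and the 3 members furthest apart between hairpins. Of each other list, up to 3 changed genes in each direction were named, with ATF4 and DDIT3. HYOU1, ERP29, MANF and other members given with full values were added after their values were seen. A listed symbol that duplicates SELENOS, and SEC22B, had no matching row. Protein sequences were not used here.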

Additional observations from a re-analysis of the deposited data

How the results depend on the processing

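The median log2 fold change of the members stayed between 0.27 and 0.34 under the 8 other fits, and was 0.29 and 0.36 with hairpin 3 and hairpin 2 alone, the range over leaving out each ARID1B library. With 1 library a side no test was possible. The number of members further from the control under hairpin 2 stayed at 43 in the 4 alternatives. No paired analysis was possible because there is 1 control library and the labels give no replicate numbers that the groups share.

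Counts of calls depended on the filter. Without a filter on low counts edgeR called 0 genes higher and 0 lower (1715 and 1503 at an unadjusted p under 0.05), 0 members (28 higher and 1 lower unadjusted) and 0 genes of the other lists (10 folding, 4 translocation, 7 degradation, 2 PERK branch, 3 other UPR, 4 traffic and 0 heat shock genes unadjusted). DESeq2 called 775 genes higher and 277 lower, edgeR at a mean CPM of at least 1 called 622 and 338 (against 1119 and 655). The higher share of all calls was 63.1%, and 73.7% in DESeq2. At a mean CPM of at least 1, 9 members rose and 0 fell; DESeq2 called 15 and 0. The 9 and the 15 were all among the 18, as were the 14 with upper quartile factors and the 15 with robust empirical Bayes. The 24 with RLE factors and the 23 with the legacy fit held all 18. The cause was not tested.

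Of the other lists, translocation had 2 calls with RLE factors and the legacy fit (1 as first given). Degradation (2 as first given) had 4 with RLE factors, library size alone and the legacy fit, and 1 with DESeq2, upper quartile factors, robust empirical Bayes and a mean CPM of at least 1. The PERK and ATF4 list (1 as first given) had 0 with robust empirical Bayes and a mean CPM of at least 1. Other UPR factors (1 as first given) had 2 (1 of them lower) with upper quartile factors and library size alone, and 0 at a mean CPM of at least 1. The heat shock list (0 as first given) had 1, lower, with upper quartile factors and library size alone. Signs changed for uncalled members near 0: SEC63 (-0.0011) and DERL2 (-0.0051) with upper quartile factors, ATF6 (0.0031) with DESeq2 and (0.0031) with RLE factors, and EIF2AK3 with upper quartile factors (-0.041) and library size alone (-0.0090).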

Other observations

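Heat shock genes outside the ER were read for comparison, and 8 of 13 had a positive log2 fold change. Of 13 heat shock genes of the cytosol and mitochondria tested, 0 rose and 0 fell in edgeR (1 had an unadjusted p under 0.05) and in DESeq2 (2 had), with a median log2 fold change of 0.06. HSPA8, the constitutive cytosolic Hsp70, had 2502, 2035 and 2423 CPM in the control, hairpin 2 and hairpin 3 libraries (-0.17 ± 0.2). HSP90AA1 had 820.3, 938.7 and 1001 CPM (0.24 ± 0.163), and HSP90AB1 had 2704, 1922 and 2324 CPM (-0.35 ± 0.2). The stress-inducible HSPA1B stood at 7.23, 5.82 and 6.24 CPM (-0.26 ± 0.193), and its near-identical copy HSPA1A at 0.483, 0.482 and 0.642 CPM. Reads that match both copies cannot be assigned to either alone, so the levels of HSPA1A and HSPA1B are uncertain. The difference between this list and the ER members was not tested.

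Genes that share exons with members differed in how they moved. ELL3, which overlaps 14.8% of the exon length of PDIA3 on the other strand, fell (-0.72 ± 0.169, edgeR adjusted p = 0.0123) while PDIA3 rose. SNX22 and ATP6V1C2 rose with PPIB and PDIA6, their overlapping partners, to a similar extent (edgeR adjusted p = 0.00456 and 0.00132).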
